A study of Rattus norvegicus with 10 samples.

Results

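Molecular chaperones and protein folding enzymes were followed in cultured microglia, the resident macrophages of the brain, at rest and after interferon gamma (IFN-gamma). The members were the genes of the array whose only annotated symbol begins with Hsp, Dnaj, Pdia, Fkbp or P4h, or with Cct and a digit, or is Ppia, Ppib, Ppid, Tcp1 or St13. Pdia3, which works in the loading of class I molecules, and Hspg2, a matrix proteoglycan, were left out. This gave 42 genes of 4736, measured by 77 probe sets of 8740 tested. By the known site of the protein 23 belong to the cytosol and nucleus, 4 to the mitochondrion and 14 to the endoplasmic reticulum (ER), and Dnajc17, a J-domain gene, was not placed. No probe set named Ppia or Tcp1 alone, and 14 probe sets that carry a module symbol beside others, among them those listing Hsp90aa1, Hspa1b, Hspa8 and Ppia, are not described as genes.

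Chaperones bind unfolded chains and release them in cycles driven by ATP, and prolyl and disulfide isomerases speed the slow chemical steps of folding. In the cytosol J-domain proteins hand clients to HSP70, from which many kinases and receptors pass to HSP90, while actin and tubulin fold inside the TRiC chaperonin. Many cytosolic chaperone genes are controlled by heat shock factor 1 and many ER chaperone genes by the unfolded protein response. Such genes, which are a part of the members, are widely read as gauges of folding stress. In macrophages and microglia the ER set also serves the synthesis of receptors and secreted proteins.

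The cells came from neonatal rat brain, 1 brain per flask, were kept in medium holding 15% fetal calf serum, and were plated on day 15. Control dishes received fresh medium alone, and treated dishes received fresh medium with 100 U/ml IFN-gamma, the macrophage-activating cytokine, over 16 hours. The controls were 5 independent cultures, numbered 1, 2, 3, 5 and 6, and the treated group was 3 cultures, numbered 1, 2 and 3, with IFN-gamma culture 1 measured on 3 technical arrays that were averaged. The labels used here give neither strain nor sex, and the arrays measured whole dishes, so that fewer cells of a type and less RNA per cell cannot be told apart.

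The median deposited signal was lowest on the array of control culture 3 (7.4) and highest on IFN-gamma array 1b (23.7), and the arrays were therefore quantile normalised. All levels below are normalised log2(signal + 16) values, on which a signal of 0 is 4, and differences are log2 fold changes on that scale, which understate the change of dim genes. Levels of different probe sets are not set against each other. Of 9 measured microglia and macrophage markers, among them Aif1, Cd14 and Lyz2, 5 had a deposited signal above 16 on all 10 arrays, and each did on at least 1. Of 7 astrocyte markers 2 were above 16 on all arrays (Slc1a3 and Glul, the second not restricted to astrocytes), and Gja1 was above 16 on no array. The mean level of the astrocyte list was 5.47 to 5.89 over the controls and 5.27 to 5.45 over the IFN-gamma cultures. For 6 fibroblast markers, of which Lum was above 16 on no array, these ranges were 5.55 to 5.87 and 5.26 to 5.48. No fibroblast marker passed. Col1a2, Lum and Col3a1 had -0.71, -0.59 and -0.55, and Dcn, Acta2 and Col1a1 had -0.048, -0.039 and -2.71e-06. The summed normalised signal of the fibroblast list was 194 to 283 in the controls and 161 to 192 with IFN-gamma, and that of the astrocyte list, where Glul fell (-1.66), was 556 to 914 and 246 to 308. The 6 other astrocyte markers had log2 fold changes between -0.18 and 0.13, with overlapping groups. Of the microglia and macrophage list 3 genes rose by limma, C1qb, C1qc and Lyz2. No other gene of it passed: Itgam, Aif1, Ptprc and Csf1r had 0.79, 0.42, 0.25 and 0.15, and Cd14 and Cx3cr1 -0.34 and -0.29. The summed signal of this list, which leans most on Lyz2, was 2454 to 3542 and 7132 to 8269. That of 6 T and natural killer cell markers was 226 to 337 and 119 to 136, where Cd4, which rat macrophages also carry, fell. The oligodendrocyte, neuron and endothelial lists overlapped between the groups. Within the oligodendrocyte list Mag, above 16 on all 10 arrays, lay wholly below the controls with IFN-gamma (-0.70, adjusted p = 0.222). Each other measured marker of that list overlapped. The part of these lists in the results below was not tested.

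Stretches of 6 member promoters are shown because they hold, or for Hsp90ab1 lack, the letters of the elements through which folding stress is known to act on these genes. RefSeq windows of the rat assembly GRCr8, from 250 bases before to 50 after the transcript start, were found for 37 of the 42 members and not for Dnaja2, Fkbp3, Hspb2, Pdia6 and St13. Letters below are 5′ to 3′ in the direction of transcription, positions are counted back from the transcript start, and capitals mark the motif. The ER stress response element, searched on both strands as CCAAT and CCACG with 9 bases between them, was in 22 of 33469 windows (0.0657%) and in 2 of the 13 ER members with a window, once in Hspa5 and 2 times in Hsp90b1. The Hspa5 stretch lies at chr3:38452906-38453015 on the plus strand and the Hsp90b1 stretch at chr7:23012339-23012478 on the minus strand, where the second match is on the opposite strand.
Hspa5: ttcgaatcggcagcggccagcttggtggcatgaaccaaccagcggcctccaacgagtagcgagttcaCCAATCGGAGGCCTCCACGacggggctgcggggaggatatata
Hsp90b1: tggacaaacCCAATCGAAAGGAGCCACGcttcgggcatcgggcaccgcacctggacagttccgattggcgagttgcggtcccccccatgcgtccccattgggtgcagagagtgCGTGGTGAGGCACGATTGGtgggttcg

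The core of the heat shock element, searched as TTCNNGAA or GAANNTTC (each its own reverse complement, and able to overlap the other), was in 15.9% of all windows. It was in 8 of 19 cytosolic members with a window, in 3 of 4 mitochondrial members and in 1 of 13 ER members (P4hb). Hspe1 and Hspd1, the small and the large ring of the mitochondrial chaperonin, are divergent neighbours whose starts lie 290 bases apart. They share 1 run of overlapping matches, so that a single stretch of DNA is counted under both genes here and in the counts below. That run, at chr9:64084237-64084296 (plus strand, the direction of Hspe1), is shown with those of Hsph1 at chr12:10427253-10427352 (plus strand) and Fkbp4 at chr4:163398019-163398068 (minus strand).
Hspe1 and Hspd1: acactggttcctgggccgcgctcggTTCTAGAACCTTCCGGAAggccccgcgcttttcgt
Hsph1: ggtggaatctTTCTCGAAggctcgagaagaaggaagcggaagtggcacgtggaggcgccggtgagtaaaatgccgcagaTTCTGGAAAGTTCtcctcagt
Fkbp4: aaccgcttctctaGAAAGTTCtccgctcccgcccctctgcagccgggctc
Hsp90ab1, the cytosolic HSP90 gene on which the expression results turn, had neither element in its window, and the last 150 bases before its start, at chr9:22930273-22930422 on the plus strand, are given for comparison.
Hsp90ab1: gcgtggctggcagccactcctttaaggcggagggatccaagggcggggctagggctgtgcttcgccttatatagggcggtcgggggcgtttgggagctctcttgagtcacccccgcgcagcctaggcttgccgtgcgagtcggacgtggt
The IFN-gamma activated site, searched as TTCNNNGAA, was in 8.87% of all windows and in 0 of the 37 member windows. A match is a match of letters, and its absence says only that these letters are not in the window.

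IFN-gamma left none of the 42 chaperone and folding genes described here past the threshold of adjusted p 0.05. Of 42 genes 0 rose and 0 fell by limma with adjustment over all 8740 probe sets, where 1.58% of all genes passed, and the same held for the 77 probe sets (1.53% of all probe sets passed, 0.927% higher and 0.606% lower). At an unadjusted p under 0.05 stood 5 of the 42 genes (11.9%, against 11.1% of all genes), and 10 of the 77 probe sets (13.0%, against 10.5%). The genes were Hsp90ab1 and Dnaja4 with positive and Fkbp4, Dnajb5 and Ppib with negative fold changes. The median log2 fold change of the members was -0.0024 against -0.021 over all genes, with 21 members above 0 and 21 below. The IFN-gamma cultures lay wholly above the controls in 1 gene (Hsp90ab1) and wholly below them in 1 (Fkbp4), 4.76% together, where 7.81% of all genes separated (4.16% upward, 3.65% downward). By probe sets 5 lay wholly above, the 4 of Hsp90ab1 and 1 of Hspd1, and 1 of Fkbp4 wholly below, where 4.28% and 3.4% of all probe sets did. The 95% interval of the fold change, not adjusted for the number of genes, stayed between -1 and 1 for 32 of the 42 members (76.2%, against 66.1% of all genes), so that for these a change of 2-fold or more on this scale lay outside the interval.

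**Figure D1:**
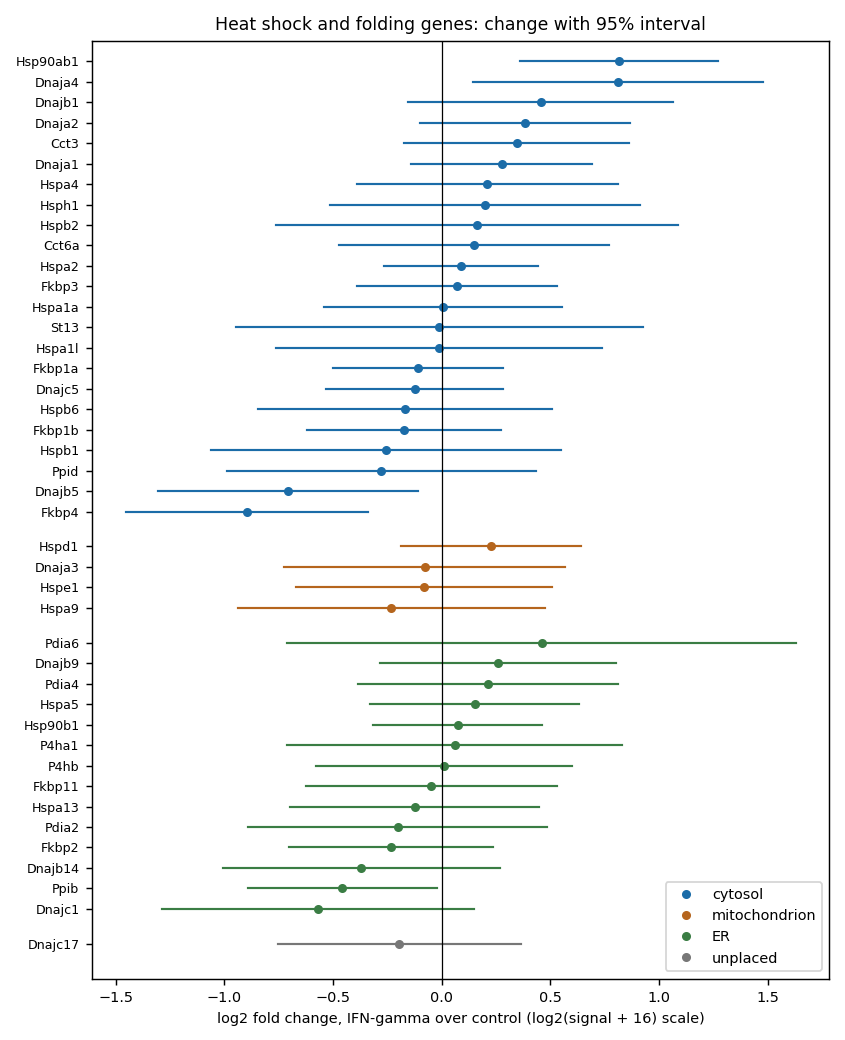
Log2 fold change of each of the 42 genes by its brightest probe set (x axis, IFN-gamma over control, log2(signal + 16) scale), with its unadjusted 95% interval from limma, grouped into cytosol, mitochondrion, ER and the unplaced Dnajc17. Hsp90ab1 and Dnaja4 stand at the top of the cytosolic genes with 0.82 and 0.81, Fkbp4 at the bottom with -0.90, and most intervals cross 0.

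The compartments had medians near 0. The median log2 fold change was 0.069 for the 23 cytosolic genes (13 above 0, 10 below), -0.080 for the 4 mitochondrial genes (1 above, 3 below) and -0.018 for the 14 ER genes (7 above, 7 below). Over single cultures the median of the ER genes, taken relative to the control mean, ran from -0.28 (control culture 3, the dimmest array) to 0.18 (control culture 1) and lay at -0.094, -0.20 and 0.11 in IFN-gamma cultures 1, 2 and 3, inside the range of the controls. The cytosolic median ran from -0.18 to 0.13 over the controls and was -0.074, 0.099 and 0.23 with IFN-gamma, with culture 3 alone above the controls. The mitochondrial median, of 4 genes, ran from -0.11 to 0.085 in the controls and was -0.079, -0.19 and 0.14 with IFN-gamma, with culture 2 below and culture 3 above that range. With no scaling between arrays the median of all genes shifted from -0.021 to 0.11, and the 3 compartment medians were then 0.32, 0.20 and 0.23. With trimmed mean scaling the median of all genes was -0.15 and the compartment medians were -0.0010, -0.20 and -0.086, so that none of the 3 has a settled sign.

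**Figure D2:**
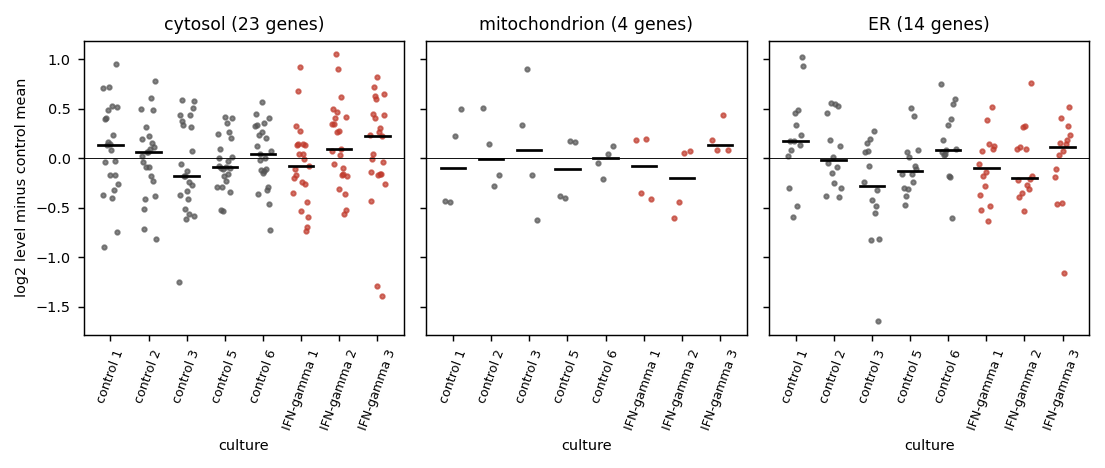
Level of each gene minus its control mean (y axis, log2 scale) in each of the 8 cultures (x axis), for the cytosolic, mitochondrial and ER genes; points are genes, bars are medians, grey is control and red is IFN-gamma. The ER medians with IFN-gamma, from -0.20 to 0.11, lie inside the range of the control cultures, -0.28 to 0.18.

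Hsp90ab1, the constitutive cytosolic HSP90 that matures kinases and steroid receptors, gave the smallest adjusted p of the module. In control cultures 1, 2, 3, 5 and 6 its brightest probe set was at 9.18, 8.63, 9.38, 8.95 and 9.09, and in IFN-gamma cultures 1, 2 and 3 at 9.73, 10.1 and 9.76. Every IFN-gamma culture lay above every control. The control and IFN-gamma means were 9.05 ± 0.28 (SD, n = 5) and 9.86 ± 0.20 (SD, n = 3), a log2 fold change of 0.82 (95% interval 0.36 to 1.27, 1.76-fold, adjusted p = 0.116). On the technical arrays 1a, 1b and 1c the level was 9.74, 9.76 and 9.68, a narrower range than that between the IFN-gamma cultures.

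The 3 other Hsp90ab1 probe sets had the same separation. They had log2 fold changes of 0.66 (adjusted p = 0.147), 1.12 (adjusted p = 0.122) and 1.07 (adjusted p = 0.129), and none passed. By the probe set S45392_at, the only one of the 4 whose name carries no mark of shared targets, the controls were at 7.88, 7.28, 7.70, 6.71 and 7.75 and the IFN-gamma cultures at 8.34, 8.88 and 8.53. Over all probe sets 4.28% had all IFN-gamma cultures above all controls. The 4 probe sets read the same RNA on the same arrays, so they are not independent of each other, and those with shared targets may also bind transcripts of close HSP90 copies. With the 4 probe sets averaged before the fit Hsp90ab1 passed (log2 fold change 0.92, adjusted p = 0.0344), as it did when the prior spread was allowed to follow the level (adjusted p = 0.0484). It passed in these 2 of 21 other settings, with a log2 fold change between 0.70 and 1.63 and an adjusted p up to 0.543 over all 21. The size moved most with the scaling, to 1.51 with array medians subtracted and 1.63 with no scaling.

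**Figure D3:**
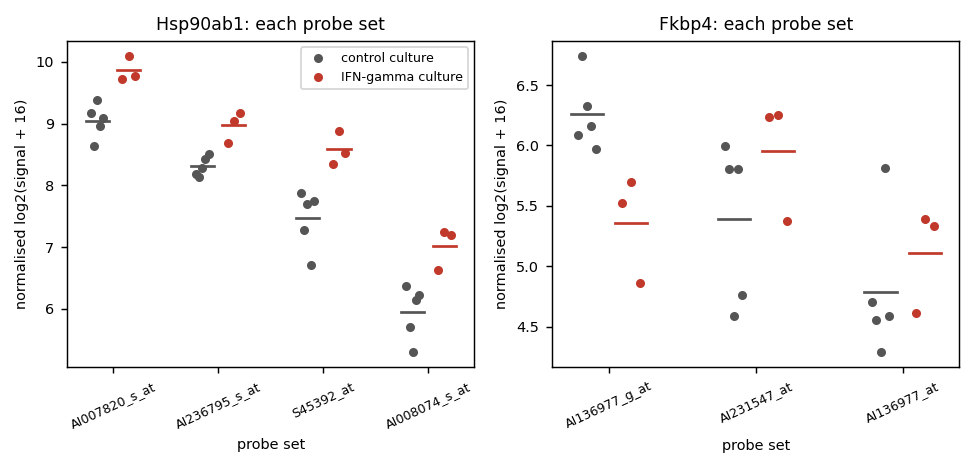
Normalised log2(signal + 16) levels (y axis) of each probe set of Hsp90ab1 (left) and Fkbp4 (right) in the 5 control cultures (grey) and 3 IFN-gamma cultures (red), with bars at the group means. In all 4 Hsp90ab1 probe sets the groups do not overlap, while the Fkbp4 probe sets differ in direction.

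**Figure D4:**
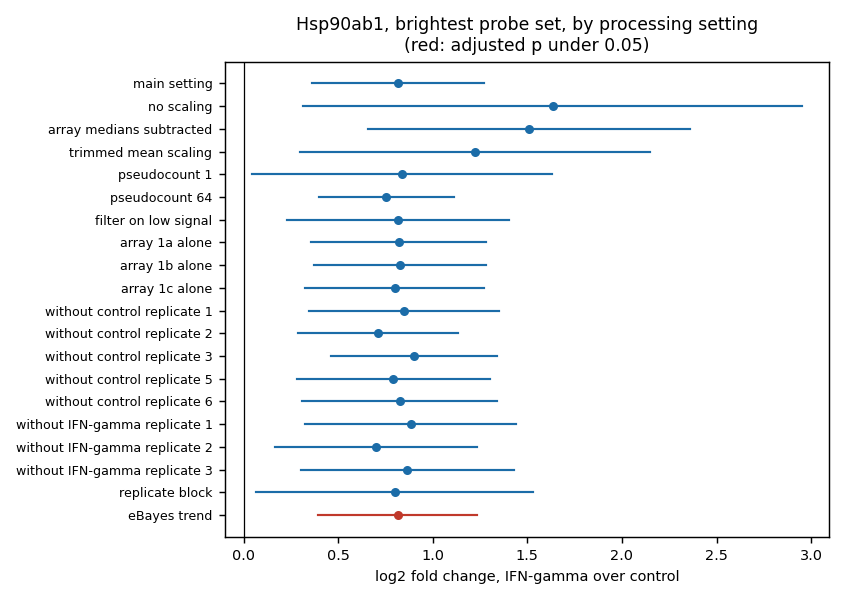
Log2 fold change of Hsp90ab1 by its brightest probe set (x axis) with its unadjusted 95% interval under the main setting and 19 alternatives that use that probe set (y axis); red marks an adjusted p under 0.05. The value stays above 0 in each, from 0.70 without IFN-gamma replicate 2 to 1.63 with no scaling.

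The J-domain co-chaperones, which drive the ATP cycle of HSP70 and pass clients to it, had values in both directions and no call. Of 6 cytosolic genes 4 had positive and 2 negative fold changes, and the median was 0.33. Dnaja4 was at 5.55, 4.90, 4.32, 4.30 and 5.10 in the controls (cultures 1, 2, 3, 5 and 6, the order kept from here on) and at 5.76, 5.74 and 5.43 with IFN-gamma (cultures 1, 2 and 3). Only control culture 1 reached into the IFN-gamma range (log2 fold change 0.81, 95% interval 0.14 to 1.48, adjusted p = 0.338). Its second probe set had 0.25. Dnajb1, the HSP40 gene induced by heat, was at 6.30, 6.22, 5.55, 5.99 and 6.73 in the controls and 6.44, 6.43 and 6.98 with IFN-gamma, and the groups overlapped (0.46, adjusted p = 0.657). Its second probe set had 0.88 (adjusted p = 0.485).

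Dnaja1 and Dnaja2, general partners of HSP70, also had positive values by every probe set. Dnaja1 was at 6.28, 6.43, 5.94, 5.83 and 6.10 in the controls and 6.26, 6.39 and 6.53 with IFN-gamma (0.28, adjusted p = 0.725), with IFN-gamma culture 3 alone above all controls. The 3 probe sets of Dnaja2 had 0.38, 0.44 and 0.86, with adjusted p of 0.622, 0.782 and 0.338. Dnajb5 had the opposite sign. It was at 5.96, 6.36, 5.81, 6.55 and 5.99 in the controls and 5.61, 5.83 and 4.85 with IFN-gamma, with IFN-gamma culture 3 the lowest and culture 2 within the controls (-0.71, 95% interval -1.31 to -0.11, adjusted p = 0.348). Dnajc5, the cysteine string protein of secretory vesicles, had -0.12 (adjusted p = 0.913), and its other probe sets had -0.18 and 0.11.

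None of the 5 cytosolic HSP70 and HSP110 genes described here passed, and the groups overlapped in each. Probe sets that list Hspa8 or Hspa1b beside other symbols are not among them. Of the 5 genes 0 were above 16 on all arrays. For the 5 genes of this family the log2 fold change lay between -0.013 and 0.21. Hspa1a, the classic heat-induced HSP70, was at 4.33, 4.72, 4.33, 4.95 and 5.15 in the controls and 4.50, 5.05 and 4.56 with IFN-gamma, and the groups overlapped (0.0058, 95% interval -0.54 to 0.56, adjusted p = 0.998). Its deposited signal was above 16 on 3 of 10 arrays, so that a lower level could hardly be measured, and it has a near-identical neighbour in Hspa1b. Hsph1, the HSP110 exchange factor of HSP70, was at 5.39, 4.27, 5.58, 4.47 and 5.22 in the controls and 5.13, 5.40 and 5.03 with IFN-gamma (0.20, adjusted p = 0.925). Hspa4, another HSP110 relative, had 0.21 (adjusted p = 0.891). Hspa1l, a constitutive HSP70 best known from testis, had -0.013 (adjusted p = 0.998), and Hspa2, whose signal was above 16 on no array, had 0.09 (adjusted p = 0.936). St13, which stabilises the client-bound state of HSP70, was at 6.22, 6.01, 4.26, 5.23 and 5.84 in the controls and 5.16, 5.59 and 5.75 with IFN-gamma (-0.011, adjusted p = 0.998), with control culture 3 the lowest of all.

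Among the small heat shock proteins, which hold unfolding proteins in a soluble state, Hspb1 (HSP27) varied more among the controls than between the group means. It was at 6.68, 7.05, 7.94, 7.63 and 7.83 in the controls and 6.74, 6.90 and 7.87 with IFN-gamma (-0.26, 95% interval -1.06 to 0.55, adjusted p = 0.906). Its 3 other probe sets had -0.57, 0.062 and 0.069, of which the last was above 16 on no array. Hspb2 and Hspb6, known mainly from muscle, had 0.16 and -0.17 (adjusted p = 0.961 and 0.936) and were above 16 on 5 and 3 arrays. The second Hspb2 probe set, above 16 on no array, had -0.25.

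Of the TRiC chaperonin 2 subunit genes were measured, and both had positive values. Cct3 had 0.34 (95% interval -0.17 to 0.86, adjusted p = 0.723) and Cct6a 0.15 (95% interval -0.47 to 0.77, adjusted p = 0.941). Each had a single probe set. In neither did the groups separate: Cct3 ran from 5.46 to 6.41 in the controls and 6.02 to 6.49 with IFN-gamma, and Cct6a from 5.61 to 6.78 and 6.22 to 6.48.

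Fkbp4 (FKBP52), the prolyl isomerase that rides on HSP90 in steroid receptor complexes, was the one member whose brightest probe set lay wholly below the controls. It was at 6.09, 6.74, 6.33, 6.16 and 5.97 in the controls and 5.52, 5.70 and 4.86 with IFN-gamma. The log2 fold change was -0.90 (95% interval -1.46 to -0.34, adjusted p = 0.161), in a direction that 3.65% of all genes took without overlap. IFN-gamma culture 3 was the lowest, and the technical arrays 1a, 1b and 1c of culture 1 were at 5.82, 5.82 and 4.94. The other Fkbp4 probe sets had positive values that did not pass, 0.56 (adjusted p = 0.729) and 0.32 (adjusted p = 0.863). The gene has therefore no settled direction here.

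The remaining cytosolic prolyl isomerases had small values. Fkbp1a (FKBP12), the receptor of the drugs FK506 and rapamycin, was at 7.68, 7.25, 7.20, 7.41 and 7.64 in the controls and 7.43, 7.27 and 7.28 with IFN-gamma (-0.11, 95% interval -0.50 to 0.28, adjusted p = 0.927), and its 4 probe sets lay between -0.27 and 0.073. Its close relative Fkbp1b, above 16 on no array, had -0.17 (adjusted p = 0.875). Fkbp3, a nuclear isomerase above 16 on 1 array, had 0.069 and Ppid (cyclophilin 40), another HSP90 partner, -0.28 (adjusted p = 0.968 and 0.875).

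In the mitochondrion Hspd1 and Hspe1, which share the promoter shown above, form the folding chamber of the matrix. Hspd1 was at 7.28, 6.77, 6.88, 7.23 and 7.09 in the controls and 7.24, 7.10 and 7.48 with IFN-gamma (0.23, 95% interval -0.19 to 0.64, adjusted p = 0.8). Hspe1 was at 7.13, 6.47, 6.01, 6.80 and 6.76 and 6.22, 6.71 and 6.72 (-0.081, 95% interval -0.67 to 0.51, adjusted p = 0.97). Control culture 1 was the highest control for both. The second Hspd1 probe set was at 5.94, 5.42, 5.53, 5.92 and 5.39 in the controls and 6.26, 5.98 and 6.17 with IFN-gamma. There the groups did not overlap, but the difference did not pass (0.49, adjusted p = 0.383). The second Hspe1 probe set had 0.14, so that the 2 probe sets of Hspe1 differed in sign.

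Hspa9 (mortalin), the HSP70 that pulls imported proteins into the matrix, was at 4.89, 5.48, 6.24, 4.93 and 5.13 in the controls and 4.99, 4.89 and 5.42 with IFN-gamma, with control culture 3 the highest (-0.23, adjusted p = 0.899). Its 2 other probe sets had positive values of 0.50 and 0.66 (adjusted p = 0.667 and 0.489), and no direction can be given. With the probe sets averaged the median of the 4 mitochondrial genes was 0.17 in place of -0.080. Dnaja3, the J-domain partner of Hspa9, was at 4.82, 5.75, 5.58, 4.86 and 5.20 in the controls and 5.43, 4.64 and 5.42 with IFN-gamma (-0.078, adjusted p = 0.975).

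The main ER chaperones, whose promoters hold the ER stress response element, differed little between the groups in the main setting. The size depended on the scaling. With no scaling between arrays Hspa5 and Hsp90b1 had log2 fold changes of 0.655 and 0.631 (adjusted p = 0.853 and 0.854). With array medians subtracted they had 0.532 and 0.508 (adjusted p = 0.7 and 0.706). The values that follow are those of the main setting. Hspa5 (BiP), the ER HSP70 and sensor of unfolded proteins, was at 7.18, 6.86, 7.20, 6.69 and 7.08 in the controls and 6.73, 7.32 and 7.41 with IFN-gamma, with cultures 2 and 3 above the controls and culture 1 near their lower end. The log2 fold change was 0.15 (95% interval -0.33 to 0.63, adjusted p = 0.909). The other Hspa5 probe sets differed in sign, with 0.37 and -0.19 (adjusted p = 0.884 for each), the last above 16 on no array. Hsp90b1 (GRP94), which folds Toll-like receptors and integrins, was at 7.66, 7.76, 7.64, 7.19 and 7.61 in the controls and 7.65, 7.69 and 7.60 with IFN-gamma. The treated cultures lay inside the range of the controls (0.074, 95% interval -0.31 to 0.46, adjusted p = 0.959). Its 2 other probe sets had -0.09 and -0.18 (adjusted p = 0.971 and 0.846), so that the upper bounds of the 3 intervals were 0.46, 0.60 and 0.23. Hspa13, an ER-associated HSP70, had -0.13 (adjusted p = 0.951).

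Protein disulfide isomerases, which form and reshuffle disulfide bonds, differed in sign without a call. P4hb, the founding member and a subunit of collagen prolyl 4-hydroxylase, was at 8.45, 7.88, 7.41, 7.73 and 8.36 in the controls and 8.12, 7.70 and 8.12 with IFN-gamma (0.011, 95% interval -0.58 to 0.60, adjusted p = 0.998). Its 2 other probe sets had -0.17 and 0.23. Pdia4 was at 5.00, 4.38, 4.45, 4.69 and 5.32 in the controls and 5.29, 4.56 and 5.10 with IFN-gamma (0.21, adjusted p = 0.887). Pdia6 was at 7.52, 6.62, 4.85, 6.38 and 7.10 and 6.59, 7.25 and 7.01, with control culture 3, the dimmest array, far below the rest (0.46, 95% interval -0.71 to 1.63, adjusted p = 0.875). Without that culture its log2 fold change was 0.048. Pdia2, best known from pancreas, had -0.20 (adjusted p = 0.918). P4ha1, the catalytic chain that hydroxylates collagen, was at 6.98, 5.75, 5.24, 6.13 and 6.15 in the controls and 6.17, 5.87 and 6.29 with IFN-gamma (0.06, adjusted p = 0.986).

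The ER prolyl isomerases had negative values in 3 of 3 genes by the brightest probe set, of which Fkbp2 and Ppib turned positive with no scaling between arrays, and Fkbp2 also with array medians subtracted. Ppib (cyclophilin B), which helps collagen and other secreted proteins to fold, was at 7.64, 7.41, 7.61, 6.99 and 7.65 in the controls and 6.94, 7.07 and 7.00 with IFN-gamma. Control culture 5 alone reached into the narrow IFN-gamma range (-0.46, 95% interval -0.89 to -0.024, adjusted p = 0.435). The second Ppib probe set, at 6.62, 5.71, 4.20, 5.93 and 5.92 in the controls and 5.56, 6.31 and 6.54 with IFN-gamma, had the opposite sign (0.46, adjusted p = 0.855). The mean level of the fibroblast list was also lower with IFN-gamma, through Col1a2, Col3a1 and Lum, as given above. The part of that list in the Ppib values was not tested. Fkbp2 was at 6.96, 7.72, 7.33, 6.96 and 7.32 in the controls and 6.88, 7.04 and 7.15 with IFN-gamma (-0.23, adjusted p = 0.827). The second Fkbp2 probe set had the opposite sign (0.043, adjusted p = 0.993). Fkbp11, above 16 on 1 of 10 arrays, had -0.048 (adjusted p = 0.986).

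J-domain proteins of the ER assist HSP70s inside it or at its outer face, and their 3 genes had 2 negative values and 1 positive. Dnajc1 was at 5.22, 6.25, 5.97, 5.55 and 5.51 in the controls and 5.07, 5.79 and 4.54 with IFN-gamma, with IFN-gamma culture 2 inside the controls and culture 3 the lowest (-0.57, 95% interval -1.29 to 0.15, adjusted p = 0.622). Dnajb14 was at 5.35, 4.90, 4.07, 4.91 and 5.22 in the controls and 4.76, 4.36 and 4.45 with IFN-gamma (-0.37, adjusted p = 0.781). Dnajb9, a target of the unfolded protein response, was above 16 on 3 arrays and had 0.26 (95% interval -0.28 to 0.80, adjusted p = 0.84). Dnajc17 had -0.20 (adjusted p = 0.891) and was above 16 on 1 array.

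The probe sets of a member could differ in sign. Of 22 members with more than 1 probe set, 10 had a single sign throughout and 12 did not. The same share over all genes was not taken, so these counts cannot be read as a trait of the members. The genes with a single sign included Hsp90ab1 (4 probe sets), Dnaja2 (3), Dnaja1, Dnaja4, Dnajb1, Hspa4, Hsph1 and Hspd1 (2 each), all positive, and Hspb6 and St13 (2 each), both negative. The ER genes with more than 1 probe set were only Fkbp2, Hsp90b1, Hspa5, P4hb and Ppib. None of these was among the 10, a description made after the values were seen. Some of their values were close to 0, such as 0.011 and 0.074 for the brightest probe sets of P4hb and Hsp90b1.

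The 12 members with a heat shock element core had a median log2 fold change of 0.051 (7 above 0, range -0.90 to 0.46), and the 25 with a window but no match had -0.078 (10 above 0, range -0.71 to 0.82). Hsp90ab1 stood among those without a match.

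Related genes outside the module, in a list of 67 co-chaperones, mitochondrial chaperones and ER stress genes of which 24 were measured, gave 0 calls as well, with 6 at an unadjusted p under 0.05 (25%, against 11.1% of all genes, and 21.1% of the genes above 16 on all arrays, as 12 of the 24 were). Of the 13 genes of the ER and the unfolded protein response 5 were at an unadjusted p under 0.05 (38.5%), Vcp, Asns and Canx with positive and Calr and Hyou1 with negative values. The median log2 fold change of the 24 was -0.022. Vcp, the ATPase that extracts misfolded proteins from the ER, came closest. It was at 7.39, 6.92, 6.52, 6.65 and 6.86 in the controls and 7.63, 7.99 and 7.96 with IFN-gamma, without overlap (0.99, adjusted p = 0.0724), and passed in 4 of 21 other settings. Calr (calreticulin), the ER lectin chaperone, was at 8.88, 9.01, 9.48, 8.68 and 8.88 in the controls and 8.12, 8.29 and 8.26 with IFN-gamma, wholly below the controls (-0.76, adjusted p = 0.141), while its 2 other probe sets had -0.53 and 0.22.

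Stip1 (HOP), which joins HSP70 to HSP90, was at 4.83, 4.79, 4.82, 4.76 and 4.22 in the controls and 5.03, 5.55 and 5.22 with IFN-gamma, also without overlap (0.58, adjusted p = 0.317). Canx (calnexin), the membrane partner of Calr, had values between -0.16 and 0.99 over its 5 probe sets, the brightest at 0.95 (adjusted p = 0.386). Asns, an enzyme gene induced by the stress factor ATF4, had 0.86 (adjusted p = 0.229). Hyou1, an ER relative of HSP110, had -0.64 (95% interval -1.25 to -0.022, adjusted p = 0.447). Of the stress sensors and effectors of the unfolded protein response Ddit3 (CHOP) had -0.061, Ppp1r15a (GADD34) -0.095, Trib3 0.055 and Eif2ak3 (PERK) 0.13, with adjusted p of 0.971, 0.96, 0.992 and 0.962. Hsf1 and the HSP90 kinase adaptor Cdc37 had -0.33 and 0.17 (adjusted p = 0.827 and 0.855).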

How the data were processed

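Total RNA of 8 microglia cultures was hybridised to 10 Affymetrix rat expression arrays of 1 colour. The authors deposited 1 table of probe set signals, used here as intensity on a linear scale. MAS5 and GCRMA are named in the submitters' processing notes. Which of them made the table, their versions and any scaling of the signals are not given in the sources used here. Precision rests on how few arrays there are. Of 8799 probe sets 59 array controls were left out. The 3 technical arrays were averaged after quantile normalisation of log2(signal + 16), and 5 control and 3 IFN-gamma cultures were compared by moderated linear models (lmFit with eBayes of limma 3.58.1, R 4.3.3), with two-sided p-values adjusted by Benjamini and Hochberg's method across all 8740 probe sets. A gene is its brightest probe set over the 8 cultures, and disagreeing probe sets are named. In each alternative setting the brightest probe set was picked anew, so a turn of sign there can come from a change of probe set. Symbols come from the platform annotation, which gives 1 symbol for 7006 probe sets, several for 308 and none for 1426, and all 42 members were found in the RefSeq GRCr8 table by gene ID. Every member could be named. Values in every culture were set for the 4 members of each compartment with the smallest adjusted p and a fixed set, and in the related list the 4 genes with the smallest adjusted p were named; further genes of both were added after their values were seen. The members and lists were chosen with earlier results of these data known. The script was tested on simulated data. Alternatives covered scaling, pseudocount, filters, technical arrays, each culture left out, the culture number as a block, eBayes trend and averaged probe sets. The design text calls the controls independent cultures and names no animals, so p-values measure the spread between these cultures.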

Additional observations from a re-analysis of the deposited data

Results flagged for a closer look

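In 3 of the 42 genes (7.14%) a single control culture lay far from the other 4 by Dixon's test, which chance gives in about 1 of 20 groups. Hsp90b1 was at 7.19 in control culture 5 and between 7.61 and 7.76 in the other controls. Dnaja2 was at 6.69 in control culture 1 and between 6.03 and 6.11 in the others, and Dnajc17 was at 5.18 in the same culture and between 4.12 and 4.31 in the others.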

How the results depend on the processing

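Of 875 values of single genes over 21 other settings, 782 kept their sign and their side of the threshold, 91 turned sign and 2 newly passed, both Hsp90ab1. In 20 of 42 genes the sign held in every setting run, among them Hsp90ab1, Dnaja4, Dnajb5, Dnajb1, Hspd1 and Hspa5. The folding genes called were 0 except for 1 with eBayes trend and 1 with the probe sets averaged, for which the values of single genes were added after the data were seen; the folding probe sets called were 2 with eBayes trend. The related genes called were 1 with a pseudocount of 64, with array 1b alone and with eBayes trend, and 0 to 1 over the settings that each leave out 1 culture, the 1 being Vcp without control culture 1. Over all probe sets 134 calls became 39 with no scaling, 66 with trimmed mean scaling and 67 with a pseudocount of 1. They became 68 to 154 with 1 culture left out (75, 76 and 68 without IFN-gamma culture 1, 2 and 3). Without probe sets of reduced specificity fewer probe sets were tested, and 59 passed (0.988%, against 1.53% in the main setting). Whether the culture numbers pair the samples is not given in the labels. In their deviations from the group means same-numbered cultures had correlations of -0.027, 0.004 and -0.015, which cannot settle it. With the number as a replicate block 22 probe sets passed and 0 members did. The cytosolic median log2 fold change was 0.32 with no scaling, 0.19 with array medians subtracted, 0.13 with a pseudocount of 1, 0.0058 with the probe sets averaged and -0.0010 with trimmed mean scaling. The mitochondrial median was 0.20 with no scaling, 0.076 with array medians subtracted, -0.20 with trimmed mean scaling, -0.20 with array 1c alone and 0.17 with the probe sets averaged, and the ER median was 0.23 with no scaling, 0.11 with array medians subtracted, 0.034 with a pseudocount of 1 and -0.086 with trimmed mean scaling. With 1 culture left out the cytosolic median ran from 0.015 to 0.11 and the ER median from -0.13 to 0.083. The split of all calls moved from 81 higher and 53 lower to 38 and 1 with no scaling and 100 and 27 with array medians subtracted. A median of all genes of -0.15 with trimmed mean scaling stands beside a median of the members of -0.047. The filter on low signal left 37 member genes and the filter on specificity 40. The cause of these shifts was not tested. With no scaling between arrays the log2 fold change turned to 0.13 for Dnaja3, 0.24 for Dnajc5, 0.38 for Fkbp1a, 0.27 for Fkbp2, 0.013 for Hspa13, 0.16 for Hspa1l, 0.022 for Hspa9, 0.32 for Hspb1, 0.26 for Hspe1, 0.032 for Ppib and 0.12 for St13. With array medians subtracted the log2 fold change turned to 0.011 for Dnaja3, 0.12 for Dnajc5, 0.26 for Fkbp1a, 0.15 for Fkbp2, -0.0703 for Hspa1a, 0.039 for Hspa1l, -0.066 for Hspa2, 0.19 for Hspb1 and 0.14 for Hspe1. With trimmed mean scaling the log2 fold change turned to -0.047 for Fkbp3, -0.14 for Hspa1a and -0.026 for P4ha1. With a pseudocount of 1 the log2 fold change turned to 0.053 for Fkbp11, 0.086 for Hspa1l and 0.13 for St13. With a pseudocount of 64 the log2 fold change turned to -0.00093 for Hspa1a. With array 1a alone for IFN-gamma culture 1 the log2 fold change turned to -0.032 for Hsp90b1, 0.086 for Hspb6 and -0.11 for Hsph1. With array 1b alone the log2 fold change turned to 0.33 for Fkbp1a, -0.12 for Fkbp3, -0.033 for Hspa1a, -0.036 for Hspa2, 0.027 for Hspe1, -0.11 for P4hb and 0.22 for St13. The Fkbp1a value there came from another probe set, which was then its brightest. With array 1c alone the log2 fold change turned to -0.042 for Fkbp3, -0.033 for Hspa1a, 0.041 for Hspa1l and 0.031 for St13. With the culture number as a replicate block the log2 fold change turned to 0.15 for Fkbp11, -0.041 for Hsp90b1, 0.074 for Hspa1l, -0.079 for Hspb2, 0.016 for Hspe1 and 0.0035 for St13. Without probe sets of reduced specificity the log2 fold change turned to 0.56 for Fkbp4, -0.25 for Hspb2, -0.17 for P4hb and 0.46 for Ppib. With the probe sets of a gene averaged the log2 fold change turned to -0.067 for Hsp90b1, 0.31 for Hspa9, -0.043 for Hspb2, 0.029 for Hspe1 and 0.0017 for Ppib. Over the 8 settings that each leave out 1 culture, the sign turned at least once, with ranges of -0.21 to 0.18 for Dnaja3, -0.14 to 0.14 for Fkbp11, -0.011 to 0.18 for Fkbp3, -0.021 to 0.12 for Hsp90b1, -0.27 to 0.015 for Hspa13, -0.17 to 0.12 for Hspa1a, -0.27 to 0.20 for Hspa1l, -0.0303 to 0.16 for Hspa2, -0.085 to 0.54 for Hspb2, -0.24 to 0.083 for Hspe1, -0.14 to 0.29 for P4ha1, -0.22 to 0.15 for P4hb and -0.32 to 0.17 for St13.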
